A study of Danio rerio with 36 samples.

Results

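Zebrafish embryos that lack a working sgsh gene were compared with wild-type embryos at 24 hours post fertilization (hpf), the earliest age in a series that otherwise holds larval heads and adult brains. The 6 libraries of 24 hpf whole embryos were taken by their labels from the 36 libraries of the series. Of these, 3 came from embryos homozygous for sgshΔex5-6, a deletion named for the exons it removes, and 3 from wild-type embryos. The labels name no other allele or transgene for either group. Every library was made from total RNA of 50 pooled embryos, which had been freed from the chorion by hand. The labels do not say how many clutches or parents gave the embryos, so p-values measure the spread between these pools only. One age and no hour of collection are given for the 6 pools. The genotype therefore cannot be told apart from differences in clutch, developmental progress or hour of collection.

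The product of sgsh is N-sulfoglucosamine sulfohydrolase, a lysosomal enzyme that takes sulfate groups off heparan sulfate, a sugar chain of the cell surface and the extracellular matrix. In people its loss causes mucopolysaccharidosis IIIA (Sanfilippo syndrome), a storage disease of childhood that mainly affects the brain. At 24 hpf a zebrafish embryo has nearly finished making somites, its trunk muscle twitches, its lens is starting to fill with crystallins, its notochord is vacuolated, its fin folds are growing out, and it feeds on yolk taken up through the yolk syncytial layer.

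The total count per library was 24761341 to 25915063 in sgsh embryos and 25837318 to 26038889 in wild-type embryos. Reads on mitochondrial genes made up 3.91% to 4.13% of the counts in sgsh embryos and 3.78% to 3.98% in wild-type embryos. Levels are given as CPM, the read count of a gene scaled to the size of its library with the TMM factors of edgeR. They are not corrected for gene length and so compare libraries within a gene, not one gene with another. Across genes, the log2 levels of libraries of one genotype correlated with r of 0.995 in each of the 6 pairs. Between genotypes r was 0.989 to 0.990, and the first principal component held 50.6% of the variance. Genes are not independent of each other, so these correlations only describe the libraries. Genes of the tissues that a whole embryo should hold were present in both groups. The hatching enzyme he1.1, for example, averaged 930 ± 32.6 CPM in sgsh embryos and 802 ± 29.8 CPM in wild-type embryos, and the embryonic globin hbbe1.1 averaged 289 ± 21.4 CPM and 277 ± 8.79 CPM in these groups (SD, n = 3 each).

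The count of sgsh itself did not tell the genotypes apart at this age. It was 206, 167 and 182 reads in the sgsh libraries, against 181, 223 and 204 reads in the wild-type libraries, and the groups overlapped. The log2 fold change of sgsh, on chromosome 22 at 11520249 to 11532760, was -0.11 with a standard error (SE) of 0.103 (edgeR's quasi-likelihood test, Benjamini-Hochberg adjusted p = 0.514). The genotype labels at 24 hpf could therefore not be checked by this gene. In the other samples without transgene the same gene was called lower in sgsh fish each time, with log2 fold changes of -0.93 at 5 days post fertilization (dpf), -0.88 at 2 months, -0.99 at 3 months and -0.86 at 18 months. The effect on sgsh at 24 hpf minus that at 3 months was 0.87 on the log2 scale (interaction term, adjusted p = 0.0072).

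Many genes differed, most of them by little. Of 20175 genes tested, 4369 passed an adjusted p of 0.05 in edgeR's quasi-likelihood test and are described as called, which is 21.7% of those tested. Of these, 2177 were higher in sgsh embryos (10.8% of the genes tested) and 2192 were lower (10.9%). The median absolute log2 fold change of the called genes was 0.27. The same value was under 0.44 for 75% of them, a 1.36-fold change, while 242 genes, 1.2% of those tested, were called and changed by more than 2-fold. DESeq2, run on the same counts, called 2590 genes, of which 2584 were among the genes called by edgeR. The plot of fold change against level shows how small changes were called among well-counted genes and only large ones among poorly counted genes.

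**Figure D1:**
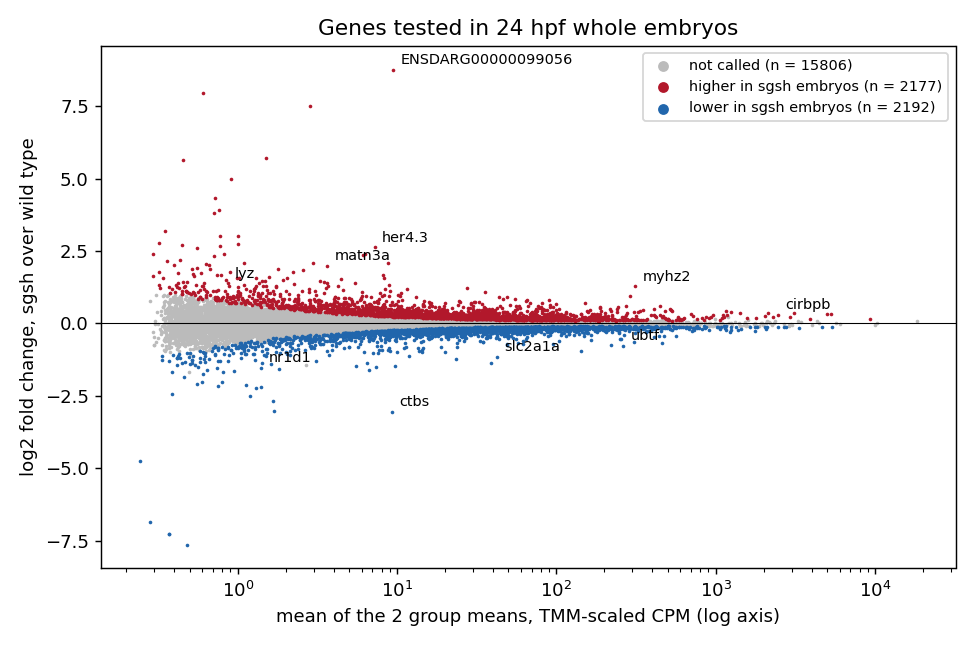
Each point is 1 gene tested in 24 hpf whole embryos, with the mean of the group means in TMM-scaled CPM on a log axis and the log2 fold change of sgsh over wild type on the vertical axis. Red points are the 2177 genes called higher in sgsh embryos, blue points the 2192 called lower, and grey points the 15806 not called.

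Most muscle genes were higher in sgsh embryos. Of 51 genes of the sarcomere and of muscle, 30 were called higher and 3 lower. Over all genes tested 10.8% were called higher and 10.9% lower, shares that belong beside the count of every list at 24 hpf. The muscle list had a median log2 fold change of 0.22, where the median of all genes tested was 0.00. In whole embryos a larger share of muscle cells and more RNA per muscle cell cannot be told apart, and the same holds for every tissue named here. The largest change in the list was in a fast muscle gene. The fast myosin heavy chain myhz2 had 405, 461 and 461 CPM in sgsh embryos, against 184, 186 and 174 CPM in wild-type embryos. Every sgsh library lay far above every wild-type library, and the log2 fold change was 1.28 (SE 0.0445, edgeR adjusted p = 1.51e-15). Parvalbumin pvalb1, a calcium buffer that speeds relaxation, averaged 383 ± 31.3 CPM in sgsh embryos and 201 ± 15.5 CPM in wild-type embryos (SD, n = 3 each). The calsequestrin casq1a, which stores calcium in the sarcoplasmic reticulum, averaged 101 ± 7.61 CPM in sgsh embryos and 61.8 ± 3.55 CPM in wild-type embryos. cacna1sa, the voltage sensor of excitation-contraction coupling, rose with a log2 fold change of 0.69, and tnnt3b, a fast troponin T, with one of 0.61. The 3 members called lower were myog, a transcription factor of differentiating myoblasts, with a log2 fold change of -0.50, the myosin myhb with -0.75, and the actin gene actc1a with -0.65. The values of actc1a in sgsh embryos spread from 160 to 317 CPM, against 363 to 388 CPM in wild-type embryos, and DESeq2 did not call it (adjusted p = 0.106). The summed level of the list was 39834 to 42301 CPM in sgsh embryos and 31616 to 35635 CPM in wild-type embryos.

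Outside the list, 3 further muscle genes were among the 12 largest rises. nebl, a gene known from heart muscle that was also read in brains, was among the 12 largest falls. It had 28 reads over the sgsh libraries and 234 over the wild-type libraries, with levels given below. tnni2b.2, a fast troponin I, had 0.642, 0.781 and 0.927 CPM in sgsh embryos, against 0, 0.0386 and 0.31 CPM in wild-type embryos. At these low counts DESeq2 did not call it (adjusted p = 0.0772). mustn1a, a small protein of muscle and bone, had 1.68, 1.56 and 0.811 CPM in sgsh embryos, against 0.23, 0.232 and 0.155 CPM in wild-type embryos. atp2a1l, a gene annotated as like the calcium pump of the sarcoplasmic reticulum, had 9.75, 9.26 and 12.6 CPM in sgsh embryos, against 1.92, 2.05 and 2.01 CPM in wild-type embryos. Only genes whose groups did not overlap could enter the rankings of largest changes, so their separation is no further result. atp2a1l was 5.28-fold higher in sgsh embryos (SE of the log2 fold change 0.135, edgeR adjusted p = 1.2e-11). Across the transcriptome the groups did not overlap in 36.3% of the genes tested.

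Most lens genes were higher as well. Of 31 genes for crystallins and other proteins of lens fibres, 23 were called higher and none lower, with a median log2 fold change of 0.49. mipb, a water channel of lens fibres, had 10.3, 13.4 and 13.5 CPM in sgsh embryos, against 5.79, 5.52 and 5.81 CPM in wild-type embryos. The groups were well apart, with a log2 fold change of 1.12 (SE 0.102, edgeR adjusted p = 2.89e-08). The β-crystallin crybb1 averaged 66.5 ± 10.6 CPM in sgsh embryos and 47.5 ± 3.44 CPM in wild-type embryos. mipa, the second water channel of the lens, had a log2 fold change of 0.72. The largest change in the list was 1.64 for crygm2d6, one of the γM-crystallins, whose many copies are alike and may share reads, so that the value of a single copy is uncertain. At an unadjusted p under 0.05, 24 members were higher and none lower, and DESeq2 called 18 higher and none lower. In 5 dpf heads, where 5.71% of all genes tested were called higher and 8.67% lower, 5 of the 31 genes were called higher and 2 lower.

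Most cartilage and notochord matrix genes rose. Of 21 genes of the notochord and cartilage matrix, 13 were called higher and 1 lower, with a median log2 fold change of 0.26. matn3a, an adaptor protein of cartilage matrix, had 5.86, 5.66 and 5.95 CPM in sgsh embryos, against 1.19, 1.62 and 1.59 CPM in wild-type embryos. Its levels in sgsh embryos hardly varied, and the log2 fold change was 1.99 (SE 0.145, edgeR adjusted p = 7.65e-10). Both aggrecan genes, which encode the large proteoglycan of cartilage, rose, acana with a log2 fold change of 0.74 and acanb, outside the list, with a 5.27-fold change, though acanb stood at only 1.38 ± 0.357 CPM in sgsh embryos and 0.257 ± 0.0889 CPM in wild-type embryos. The main collagen gene of the notochord sheath, col2a1a, averaged 1417 ± 90.3 CPM in sgsh embryos and 1087 ± 142 CPM in wild-type embryos. Its partner chain col11a2 had a log2 fold change of 0.57, and col9a1a, of the collagen IX that coats the fibrils, one of 0.44. The small proteoglycan epyc had one of 0.60. The member called lower was noto, a transcription factor of the early notochord, with a log2 fold change of -0.51 (edgeR adjusted p = 0.0439), which DESeq2 did not call (adjusted p = 0.183) and edgeR called without wild type replicate 1 but not without any one of the other libraries (adjusted p 0.0536 to 0.186). serpinh1b, a chaperone of procollagen, averaged 95.4 ± 0.672 CPM in sgsh embryos and 69.3 ± 2.18 CPM in wild-type embryos.

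The actinodin genes encode the actinotrichia, the fibres that stiffen the fin fold of fish. and2 had 53.1, 57.3 and 60.5 CPM in sgsh embryos, against 30.9, 29.4 and 29.7 CPM in wild-type embryos, with a log2 fold change of 0.92 (SE 0.0512, edgeR adjusted p = 1e-11). It was among the 10 genes with the smallest adjusted p. The other two members looked up were chosen after the values were seen. and1 averaged 122 ± 9.94 CPM in sgsh embryos and 76.8 ± 2.79 CPM in wild-type embryos, and and3 averaged 12.6 ± 2.07 CPM in sgsh embryos and 5.08 ± 0.574 CPM in wild-type embryos. Neither pair of groups overlapped, as in 36.3% of all genes tested.

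Some genes of the tailbud and of segmentation went the other way. These genes keep up the pool of unsegmented mesoderm at the tail end and time the cutting of somites, and they fade as somite formation ends. Of 32 genes, 12 were called lower in sgsh embryos and 1 higher, with a median log2 fold change of -0.20. msgn1, which commits progenitors to presomitic mesoderm, had 3.69, 3.32 and 2.94 CPM in sgsh embryos, against 6.4, 5.75 and 5.93 CPM in wild-type embryos (log2 fold change -0.86, SE 0.119, edgeR adjusted p = 1.27e-05). tbx6, which sets the segment boundary, averaged 7.81 ± 1.99 CPM in sgsh embryos and 14.2 ± 0.509 CPM in wild-type embryos. her1, an oscillator of the segmentation clock, averaged 2.17 ± 0.615 CPM in sgsh embryos and 3.88 ± 0.388 CPM in wild-type embryos. tbx16, a T-box factor of the tailbud, had a log2 fold change of -0.58 and the signal fgf8a one of -0.55. mespab and ripply2, which act in the forming segment, had larger changes, -1.42 and -1.13, from levels under 1 CPM. mespab was not called without sgsh replicate 3 (adjusted p = 0.112) or without wild type replicate 2 (adjusted p = 0.0543), and ripply2 was not called when any of sgsh replicates 2 and 3 and wild type replicates 1, 2 and 3 was left out (adjusted p 0.0581 to 0.15). Without wild type replicate 2, 8 members of the list were called, all of them lower. The member called higher was tbxta, the zebrafish Brachyury gene, which marks the notochord as well as the tailbud, with 38.9 ± 3.06 CPM in sgsh embryos and 34.6 ± 1.45 CPM in wild-type embryos. tbxta was not called without sgsh replicate 1, wild type replicate 1 or wild type replicate 2 (adjusted p 0.0973 to 0.184), nor by DESeq2 (adjusted p = 0.0994). her7 was not called (log2 fold change -0.76, edgeR adjusted p = 0.0653).

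**Figure D2:**
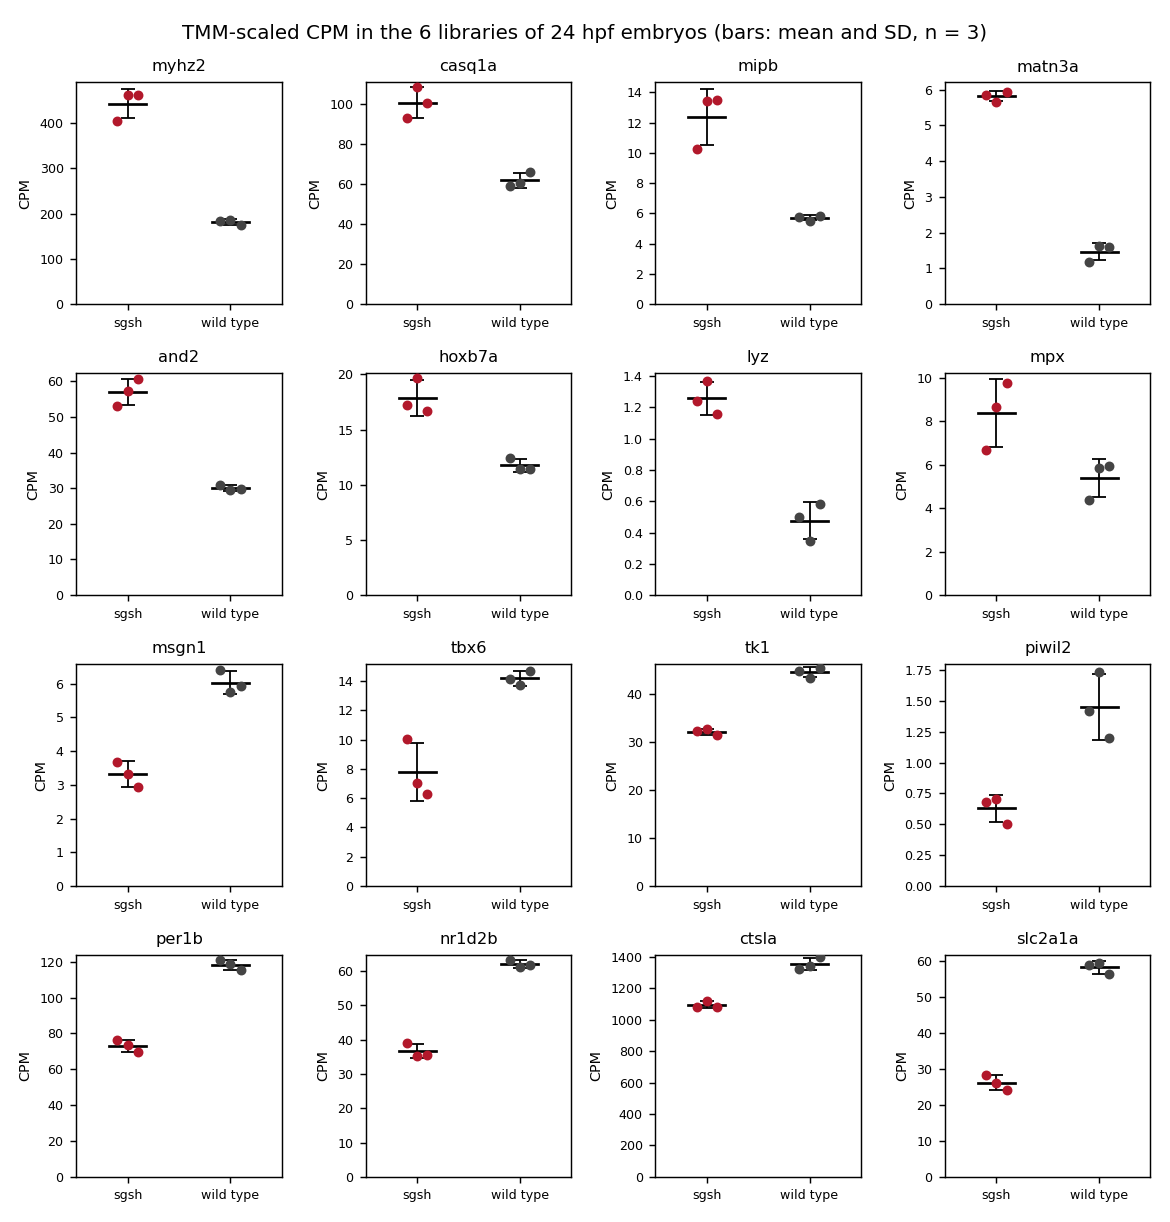
TMM-scaled CPM of 16 genes in each library, with sgsh embryos (red) left of wild-type embryos (grey), every vertical axis from 0, and bars for the mean and SD of 3 libraries. The groups do not overlap in any of the 16 genes, which were higher in sgsh embryos from myhz2 to mpx and lower from msgn1 to slc2a1a. The 16 were picked from called genes named in the text, and the groups did not overlap in 36.3% of all genes tested.

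Of 48 hox genes, which give cells their position along the body axis, 17 were called higher and none lower, with a median log2 fold change of 0.14. By their place in the clusters, 4 of 10 genes of paralog groups 1 to 3 were called, 11 of 20 of groups 4 to 9 and 2 of 18 of groups 10 to 13. hoxb7a had 17.2, 19.7 and 16.6 CPM in sgsh embryos, against 12.5, 11.4 and 11.5 CPM in wild-type embryos (log2 fold change 0.60, SE 0.0748, edgeR adjusted p = 2.97e-06). hoxc4a had a log2 fold change of 0.41 and hoxb6b one of 0.41. The number called dropped to 11 without sgsh replicate 1 and to 9 without wild type replicate 2, and DESeq2 also called 9, all of them higher. At an unadjusted p under 0.05, 21 were higher and none lower.

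Some cell cycle genes fell slightly. Of 48 genes, 18 were called lower and 4 higher, with a median log2 fold change of -0.07. Thymidine kinase tk1 averaged 32 ± 0.622 CPM in sgsh embryos and 44.4 ± 1.04 CPM in wild-type embryos. The licensing factor cdc6 had a log2 fold change of -0.27 and the replicative helicase subunit mcm5 one of -0.19. The repressors e2f7 and e2f8 had -0.31 and -0.26. The 4 members that rose, bub1ba, aurka, ccnb3 and cdc20, act in mitosis, with log2 fold changes of 0.23, 0.15, 0.15 and 0.14. ccnb3 was not called without sgsh replicate 3, wild type replicate 1 or wild type replicate 2 (adjusted p 0.0837 to 0.103), nor by DESeq2 (adjusted p = 0.0844), and aurka was not called without wild type replicate 2 (adjusted p = 0.05). The tables give the symbol rrm2, a subunit of ribonucleotide reductase, to a pair of genes that may share reads. The one on chromosome 20 averaged 97.4 ± 26.6 CPM in sgsh embryos and 189 ± 15.4 CPM in wild-type embryos and was called (log2 fold change -0.95, edgeR adjusted p = 4.1e-07). The one on chromosome 19 averaged 273 ± 33.3 CPM in sgsh embryos and 252 ± 18 CPM in wild-type embryos and was not called (log2 fold change 0.12, adjusted p = 0.173). Summed, they had 378, 369 and 365 CPM in sgsh embryos, against 443, 427 and 454 CPM in wild-type embryos.

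Genes of differentiating neurons were more often called higher than lower. Of 36 such genes, 12 were called higher and 3 lower, against 10.8% and 10.9% of all genes tested. The median log2 fold change of the list was 0.08. The largest change was that of gad1b, a gene of inhibitory transmission. gad1b, which makes GABA, averaged 9.11 ± 0.814 CPM in sgsh embryos and 6.33 ± 1.01 CPM in wild-type embryos. The vesicular transporter slc32a1 had a log2 fold change of 0.28, the sodium channel scn8aa had one of 0.36, and snap25a, of the synaptic fusion machinery, one of 0.24. The neurofilament pair moved apart, nefma with 0.29 and nefmb with -0.28. Of 37 genes of neural progenitors and Notch signalling, 7 were called higher and 9 lower. Among the lower was the progenitor factor sox21a, with a log2 fold change of -0.29. The Notch targets of the her4 array on chromosome 23 went both ways. her4.3 had 14.3, 10.9 and 12.2 CPM in sgsh embryos, against 1.3, 2.12 and 2.63 CPM in wild-type embryos, and her4.2 had 47.2, 45.3 and 48.5 CPM in sgsh embryos, against 80.7, 75.9 and 74.1 CPM in wild-type embryos. These neighbours are near-identical copies, so that the split of reads among them is uncertain. Among 22 genes of the neural crest, 6 were called lower, the endothelin receptor ednrab with a log2 fold change of -0.29 among them, and 2 higher. One of those was crestin, with 2.83 ± 0.314 CPM in sgsh embryos and 1.00 ± 0.573 CPM in wild-type embryos, a gene made of repeated elements. The other was pax7a, which also belongs to the pigment list and is needed for yellow pigment cells. In that list, genes of the pteridine pigment of these cells were called higher (gch2, log2 fold change 0.37, and XDH, 0.64), and the melanocyte factor mitfa (-0.36) and tfec (-0.45) lower, with 6 of 28 members higher and 5 lower.

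Genes of blood and immune cells went both ways. Of 24 genes of macrophages, neutrophils and microglia, 5 were called higher and 2 lower, 29.2% of the list. Genes of neutrophil granules were among the higher ones. Lysozyme, lyz, had 1.24, 1.37 and 1.16 CPM in sgsh embryos, against 0.499, 0.347 and 0.581 CPM in wild-type embryos. Myeloperoxidase, mpx, had 6.7, 8.67 and 9.77 CPM in sgsh embryos, against 4.37, 5.83 and 5.93 CPM in wild-type embryos. npsn, a metalloprotease of neutrophils, averaged 7.9 ± 1.49 CPM in sgsh embryos and 4.11 ± 0.284 CPM in wild-type embryos. The groups did not overlap in any of these, as in 36.3% of all genes tested. Their log2 fold changes were 1.39, 0.64 and 0.94, with edgeR adjusted p of 0.000574, 0.000752 and 7.24e-06. srgn, a proteoglycan of granules, had a log2 fold change of 0.54. p2ry12, a receptor of microglia, was also called higher, with 1.00, 0.391 and 1.00 CPM in sgsh embryos, against 0.23, 0.463 and 0.387 CPM in wild-type embryos (log2 fold change 1.14, edgeR adjusted p = 0.031). Its groups overlapped, and it was not called by DESeq2 (adjusted p = 0.133) or without sgsh replicate 1, sgsh replicate 3, wild type replicate 1 or wild type replicate 3 (adjusted p 0.0624 to 0.142). The macrophage genes mpeg1.1 and csf1ra were not called. mpeg1.1 averaged 2.75 ± 0.561 CPM in sgsh embryos and 2.72 ± 0.344 CPM in wild-type embryos, and csf1ra averaged 7.59 ± 0.693 CPM and 7.35 ± 0.93 CPM in these groups. The myeloid factor spi1a was called lower (log2 fold change -0.57, edgeR adjusted p = 0.0447), but not by DESeq2 (adjusted p = 0.163), nor without sgsh replicate 2, wild type replicate 1 or wild type replicate 2 (adjusted p 0.0779 to 0.24). DESeq2 called 4 members of the list, all of them higher. In 5 dpf heads 17 of the same 24 genes were called lower in sgsh larvae, where 8.67% of all genes tested were called lower. npsn and mpx were among the 17, with log2 fold changes of -0.73 and -1.10. Of 25 genes of globins and red blood cells at 24 hpf, 2 were called higher and 4 lower, 24% of the list. Only 2 of 30 interferon and MHC genes were called, 6.67% of the list, where 21.7% of all genes were called. At an unadjusted p under 0.05, 3 were higher and 6 lower. DESeq2 called 0 of these 30, as did edgeR without wild type replicate 2 or wild type replicate 3, and 1 was called without sgsh replicate 2 or sgsh replicate 3. The summed level of these 30 genes was 140 to 147 CPM in sgsh embryos and 141 to 147 CPM in wild-type embryos. Among poorly counted genes only large changes were called.

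Many clock genes fell and none rose. In zebrafish these genes cycle with the time of day in most tissues and several respond directly to light. The sample titles give no hour or light phase of collection, so genotype and time of harvest cannot be told apart here. Of 41 genes, 22 were called lower in sgsh embryos and none higher, with a median log2 fold change of -0.25, the lowest of the lists. per1b, a repressor of the core loop, had 76.4, 73.3 and 69.6 CPM in sgsh embryos, against 121, 119 and 115 CPM in wild-type embryos (log2 fold change -0.70, SE 0.04, edgeR adjusted p = 1.64e-11). nr1d2b, a repressor of the REV-ERB family, had 39, 35.3 and 35.6 CPM in sgsh embryos, against 63.2, 61.1 and 61.9 CPM in wild-type embryos. Libraries of one genotype lay close together for both genes. nr1d1, another REV-ERB gene, was lower still, with a log2 fold change of -1.54, from levels of 0.72 ± 0.0623 CPM in sgsh embryos and 2.09 ± 0.327 CPM in wild-type embryos. per1a had -1.04, per3 -0.53, and per2, which light induces, -0.22. The output factors dbpa and tefa had -1.02 and -0.45. Among the cryptochromes, cry1a had -0.35 and cry5, which also encodes a DNA repair photolyase, -0.41. Of the activators, clockb fell with a log2 fold change of -0.26, while bmal1a (0.06, edgeR adjusted p = 0.555) and bmal1b (-0.02, adjusted p = 0.88) were not called. At an unadjusted p under 0.05, 1 member was higher and 23 lower, and DESeq2 called 19 lower and none higher. In 5 dpf heads 8 of the 41 were called higher and 16 lower, where 5.71% of all genes tested were called higher and 8.67% lower. The summed level of the list was 1225 to 1295 CPM in sgsh embryos and 1509 to 1552 CPM in wild-type embryos.

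**Figure D3:**
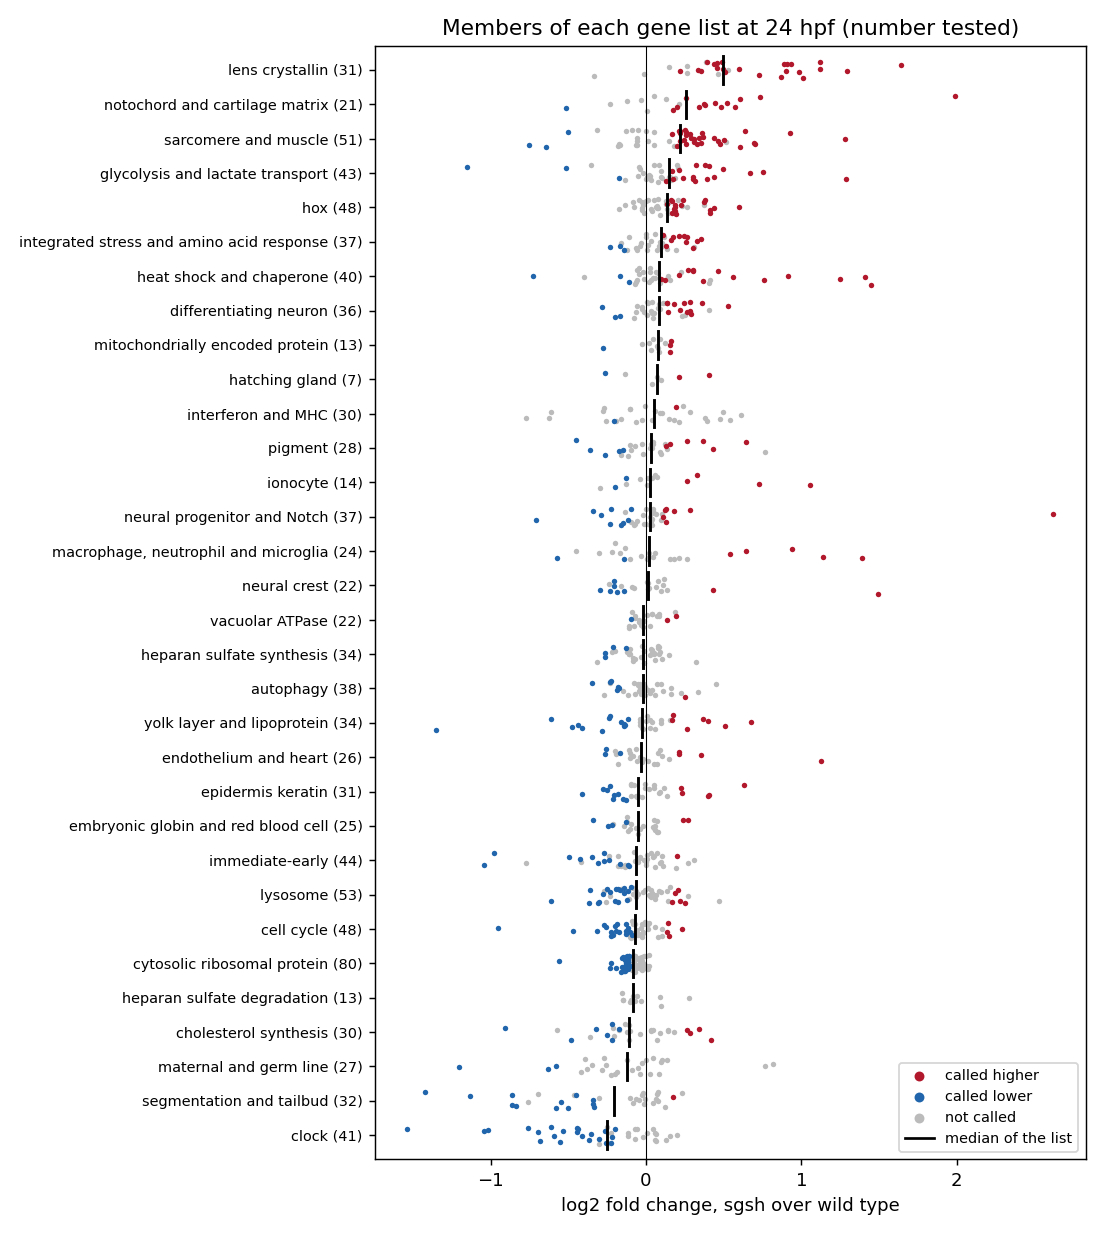
Each point is the log2 fold change, sgsh over wild type, of 1 list member tested at 24 hpf, with called members in red (higher) or blue (lower), other members in grey and the median of each list as a black bar. The medians run from 0.49 for lens crystallins to -0.25 for clock genes, and the vertical scatter within a row carries no value.

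No gene of the affected pathway passed the test. None of the 13 genes of heparan sulfate degradation, sgsh included, was called, and their log2 fold changes ranged from -0.15 to 0.28. The enzymes that act beside sgsh in the chain had log2 fold changes of -0.07 (NAGLU), -0.09 (HGSNAT), -0.03 (gnsa) and -0.14 (gnsb). At an unadjusted p under 0.05 in edgeR, 1 was higher and 3 were lower. DESeq2 also called none of the 13, while without sgsh replicate 2 edgeR called 1. Among 34 genes that build heparan sulfate chains and their core proteins, none was called higher and 4 were called lower, the sulfotransferases hs6st2 (-0.27) and hs3st3b1b (-0.21), xylt2 (-0.27), which starts the chain, and the core protein sdc4 (-0.13). That is 11.8% of the list, where 21.7% of all genes tested were called and 10.9% were called lower. Without wild type replicate 1, 2 members were called. xylt2 was not called by DESeq2 (adjusted p = 0.172). edgeR did not call it without sgsh replicate 2, wild type replicate 1 or wild type replicate 2 (adjusted p 0.095 to 0.128). sdc4 was not called by edgeR without sgsh replicate 3, wild type replicate 1 or wild type replicate 3 (adjusted p 0.0611 to 0.119).

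Other lysosomal genes fell more often than rose. Of 53 lysosome genes, 18 were called lower and 5 higher, with a median log2 fold change of -0.07. hexa, a subunit of β-hexosaminidase, had 11.6, 11.1 and 11.9 CPM in sgsh embryos, against 18.1, 16.1 and 18.4 CPM in wild-type embryos (log2 fold change -0.61, SE 0.0718, edgeR adjusted p = 1.38e-06). The cathepsin ctsla averaged 1096 ± 22.8 CPM in sgsh embryos and 1355 ± 36.9 CPM in wild-type embryos, and ctsba had a log2 fold change of -0.31, ctsd one of -0.14. tfeb, the transcription factor that switches lysosome genes on, had -0.37. Members called higher included ctsk (0.25) and lamp1b (0.22). A further lysosomal hydrolase, outside the list, fell by more than any list member. ctbs encodes di-N-acetylchitobiase, which trims the sugar chains of glycoproteins, and lies on chromosome 11 at 16070438 to 16083608. It had 1.97, 1.8 and 2.2 CPM in sgsh embryos, against 16.6, 17.1 and 15.8 CPM in wild-type embryos, a log2 fold change of -3.05 (SE 0.102, edgeR adjusted p = 9.54e-16). The tables class it as a polymorphic pseudogene, a gene whose reading frame is intact only in some animals. At 3 months it was not called (log2 fold change 0.55, adjusted p = 0.363), and the effect at 24 hpf minus that at 3 months was -3.61 (interaction term, adjusted p = 3.72e-06). The gene was named for its fall at 24 hpf, which this term uses again. It had 33, 40 and 23 reads in sgsh heads at 5 dpf, against 46, 49 and 41 in wild-type heads. At 18 months sgsh brains had 27, 31 and 29 reads, against 42, 43 and 117 in wild-type brains. At 2 months sgsh brains had 101, 80 and 67 reads, against 11, 31 and 79 in wild-type brains. Of 22 subunits of the vacuolar ATPase, which acidifies the lysosome, 2 were called higher and 1 lower. That is 13.6% of the list, where 21.7% of all genes tested were called. None was called by DESeq2 or by edgeR without sgsh replicate 3, wild type replicate 1 or wild type replicate 2. At an unadjusted p under 0.05, 3 were higher and 3 lower. Of 38 autophagy genes, 6 were called lower and 1 higher, 18.4% of the list, and 3 were called without wild type replicate 2. map1lc3b, of the autophagosome membrane, had a log2 fold change of -0.19.

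Glycolysis and stress genes rose in part. Of 43 genes of glycolysis and lactate transport, 17 were called higher and 3 lower, with a median log2 fold change of 0.15. The muscle phosphofructokinase gene pfkmb averaged 31.3 ± 2.86 CPM in sgsh embryos and 18.6 ± 1.36 CPM in wild-type embryos. gpib had a log2 fold change of 0.67, tpi1b one of 0.38 and lactate dehydrogenase ldha one of 0.32. The glucose transporter slc2a1a went the other way, with 28.4, 26.1 and 24.1 CPM in sgsh embryos, against 59, 59.4 and 56.3 CPM in wild-type embryos (log2 fold change -1.15, SE 0.053, edgeR adjusted p = 3.29e-13). Of 40 heat shock and chaperone genes, 14 were called higher and 3 lower, against 10.8% and 10.9% of all genes tested. The summed level of that list was lower in sgsh embryos, with 13686 to 14191 CPM, against 14248 to 14466 CPM in wild-type embryos. The inducible genes of the hsp70 array on chromosome 3, whose copies are uncertain one by one, were higher, and their spread within the sgsh group was wide. hsp70.3, for example, had 22.9, 16.3 and 12.3 CPM in sgsh embryos, against 9.63, 8.53 and 9.1 CPM in wild-type embryos. Its co-chaperone dnajb1a had 10.4, 11 and 10.9 CPM in sgsh embryos, against 6.21, 5.79 and 7.09 CPM in wild-type embryos. hsf2, a heat shock factor, was lower, with a log2 fold change of -0.73 (edgeR adjusted p = 2.36e-11). The chaperone of the endoplasmic reticulum hspa5 averaged 247 ± 4.94 CPM in sgsh embryos and 200 ± 6.68 CPM in wild-type embryos. It is also in the list of the integrated stress and amino acid response, in which 11 of 37 members were called higher and 3 lower. In that list 8 or 9 members were called without sgsh replicate 3, wild type replicate 1 or wild type replicate 2, and 6 by DESeq2.

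cdkn1a, the cell cycle inhibitor p21, had 4.93, 5.27 and 4.83 CPM in sgsh embryos, against 9.09, 10.7 and 10.7 CPM in wild-type embryos (log2 fold change -1.02, SE 0.0967, edgeR adjusted p = 5.31e-08). Immediate-early genes are those that cells induce within minutes of a stimulus. Of 44 such genes, 12 were called lower and 1 higher, against 10.9% and 10.8% of all genes tested. rgs2, a brake on G protein signalling, averaged 13.4 ± 2.81 CPM in sgsh embryos and 26.4 ± 3.32 CPM in wild-type embryos. The Fos and Jun genes were not called, with log2 fold changes of 0.04 for fosab and 0.01 for jun. Without sgsh replicate 1, 8 immediate-early genes were called. Of 80 genes for cytosolic ribosomal proteins, gathered by name after results were seen, 29 were called lower and none higher, with a median log2 fold change of -0.08 and an example in rpl19, 1002 ± 38.8 CPM in sgsh embryos and 1143 ± 47.9 CPM in wild-type embryos. This count rested on single libraries. It was 15 without sgsh replicate 1, 14 without sgsh replicate 3 and 8 without wild type replicate 3. ubtf, which drives transcription of ribosomal RNA, had 194, 191 and 196 CPM in sgsh embryos, against 334, 333 and 326 CPM in wild-type embryos (log2 fold change -0.77, SE 0.0335, edgeR adjusted p = 1.62e-13).

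In the yolk and lipoprotein list, 13 of 34 members were called lower and 7 higher. The fatty acid binding proteins fabp2 and fabp1b.1 fell, fabp2 to 341 ± 6.27 CPM in sgsh embryos, against 475 ± 3.63 CPM in wild-type embryos. The apolipoprotein array on chromosome 16 went both ways, apoa4b.1 with a log2 fold change of 0.51 and apoa4b.3 with -1.35, and its copies may share reads. Of 27 maternal and germ line genes, 3 were called lower and none higher, 11.1% of the list, where 21.7% of all genes tested were called. The summed level of the list was only 39.2 to 41.8 CPM in sgsh embryos and 44.2 to 47 CPM in wild-type embryos. Among such poorly counted genes only large changes were called. piwil2, of the piRNA pathway, had 0.682, 0.703 and 0.502 CPM in sgsh embryos, against 1.42, 1.74 and 1.2 CPM in wild-type embryos (log2 fold change -1.20, SE 0.251, edgeR adjusted p = 0.00123). DESeq2 called 1 of the 27, as did edgeR without sgsh replicate 3. In the remaining lists, 5 of 31 epidermal genes were called higher and 9 lower, 4 of 14 ionocyte genes higher and 2 lower, 2 of 7 hatching gland genes higher and 1 lower, 4 of 26 genes of endothelium and heart higher and 3 lower, 4 of 30 genes of cholesterol synthesis higher and 7 lower, and 3 of 13 mitochondrially encoded genes higher and 1 lower. nppa, a hormone gene of the heart, had the largest change among them, with 2.76 ± 0.421 CPM in sgsh embryos and 1.26 ± 0.0559 CPM in wild-type embryos. Without sgsh replicate 1, 8 of the mitochondrially encoded genes were called, all higher. Without wild type replicate 2, 4 genes of endothelium and heart and 3 of the red blood cell list were called.

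Some of the firmest calls lay outside every list. Of the 10 genes with the smallest adjusted p, ppp1r27a, which encodes a regulatory subunit of protein phosphatase, had 50.7, 50.3 and 45.1 CPM in sgsh embryos, against 21.9, 23.5 and 22.8 CPM in wild-type embryos (2.14-fold higher). dao.1, a D-amino acid oxidase, had 159, 164 and 165 CPM in sgsh embryos, against 263, 273 and 289 CPM in wild-type embryos, and the splicing factor gene srsf5a had 345, 361 and 354 CPM in sgsh embryos, against 548, 559 and 579 CPM in wild-type embryos. Only genes whose groups did not overlap could enter this ranking. Among the 12 largest falls was nebl, a protein of the Z-disc in heart muscle, with 0.561, 0.312 and 0.232 CPM in sgsh embryos, against 3.07, 2.59 and 3.37 CPM in wild-type embryos (log2 fold change -3.02). At 5 dpf nebl had 100, 92 and 90 reads in sgsh heads, against 74, 76 and 62 in wild-type heads. At 3 months it had 1660, 1660 and 1777 reads in sgsh brains, against 1858, 1734 and 1740 in wild-type brains. Its reads were thus not particular to heart muscle.

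Read by what such genes do as an embryo of this age grows on, the lists fell on both sides of 0. Muscle, lens and cartilage matrix genes, which gain expression in this period, had medians of 0.22, 0.49 and 0.26, and the tailbud list, which loses it, had -0.20. Genes that act at early steps in muscle and notochord did not share a direction. myog and noto were lower, noto with the calls lost that are given above. shhb, a signal made by the notochord and floor plate, was higher, with 8.33 ± 0.0419 CPM in sgsh embryos and 5.8 ± 0.65 CPM in wild-type embryos. tbxta was also higher, again with the calls lost that are given above. Globins and other red blood cell genes also build up in this period, and the summed level of that list was 2939 to 3369 CPM in sgsh embryos and 3048 to 3267 CPM in wild-type embryos. The part of developmental progress in these values was not tested.

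Some genes were read in one genotype and nearly unread in the other, many of them on the long arm of chromosome 4, a region rich in repeats and zinc finger genes. By counts, 5 genes had at least 30 reads in every library of one genotype and at most 3 in every library of the other, and all 5 were read in sgsh embryos. ENSDARG00000099056, on the unplaced scaffold KN150683.1, had 410, 462 and 570 reads in sgsh embryos, against 0, 3 and 0 reads in wild-type embryos. The ratio of its summed levels was 489, with an exact 95% interval of 167 to 2380 that covers counting error only. si:ch211-108c17.2, on chromosome 4 at 70850583 to 70883663, had 123, 164 and 143 reads in sgsh embryos, against 1, 0 and 1 in wild-type embryos. Its neighbour ENSDARG00000101756 had 49, 49 and 37 reads in sgsh embryos, against 0, 3 and 1 in wild-type embryos. zgc:173770, further along chromosome 4 at 77132096 to 77135076, and ENSDARG00000110710, on chromosome 3, showed the same pattern, with ratios of 16 and 57.3.

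The reverse held at lower counts in another stretch of chromosome 4. These genes were picked after their values were seen, except znf1040, which was among the 12 largest falls. znf1040, a zinc finger gene at 47656992 to 47672667, had 0 reads in each sgsh library, against 21, 18 and 19 reads in wild-type embryos. With a floor of 3 counts over the group it was at least 19-fold lower in sgsh embryos. On the same arm, si:ch211-215p11.5 at 46771835 to 46792139 and si:dkey-31n13.4 at 46981658 to 47068195 also had 0 reads in each sgsh library, against 17, 21 and 20 reads and 13, 15 and 16 reads in wild-type embryos. ENSDARG00000111026, at 46524666 to 46648979, had 1, 0 and 0 reads in sgsh embryos, against 15, 11 and 11 in wild-type embryos. The pattern was not confined to this stretch. zgc:171242, on chromosome 5, had 0 reads in each sgsh library, against 26, 21 and 28 reads in wild-type embryos. At such counts other chromosome 4 genes were read in sgsh embryos. zmp:0000001020 had 34, 26 and 32 reads there, against 0 in each wild-type library. si:dkey-172k15.14 had 21, 23 and 24 reads in sgsh embryos, against 1, 0 and 0 in wild-type embryos.

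In the later samples some of these genes varied among libraries of one genotype, some split by genotype again, and others were nearly unread in both. At 5 dpf ENSDARG00000099056 had 827, 799 and 817 reads in sgsh heads, against 375, 423 and 449 in wild-type heads. It was called higher there (log2 fold change 0.97, edgeR adjusted p = 8.61e-07), as were si:ch211-108c17.2 (1.51) and ENSDARG00000101756 (1.47). None of these was called at 2, 3 or 18 months. ENSDARG00000099056 had 82, 160 and 283 reads in sgsh brains at 2 months, against 66, 277 and 2 in wild-type brains, and at 18 months it had 298, 338 and 332 reads in sgsh brains, against 0, 100 and 292 in wild-type brains. ENSDARG00000101756 had 107, 117 and 107 reads in sgsh brains at 18 months, against 0, 0 and 77 in wild-type brains. znf1040 had 15, 17 and 23 reads in sgsh heads at 5 dpf, against 15, 7 and 14 in wild-type heads, and 0 in each sgsh brain at 18 months, against 9, 5 and 3 in wild-type brains. At 18 months si:ch211-215p11.5 had 0 reads in each sgsh brain, against 30, 23 and 6 in wild-type brains, and si:dkey-31n13.4 had 0, 0 and 1 reads in sgsh brains, against 42, 45 and 39 in wild-type brains, so these too were split by genotype at that age. ENSDARG00000110710 and zgc:173770 had at most 3 reads in every later library of both genotypes. Wild-type libraries thus included some with many and some with few or no reads on ENSDARG00000099056 and on ENSDARG00000101756. Whether the embryos carry different forms of these regions was not tested.

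**Figure D4:**
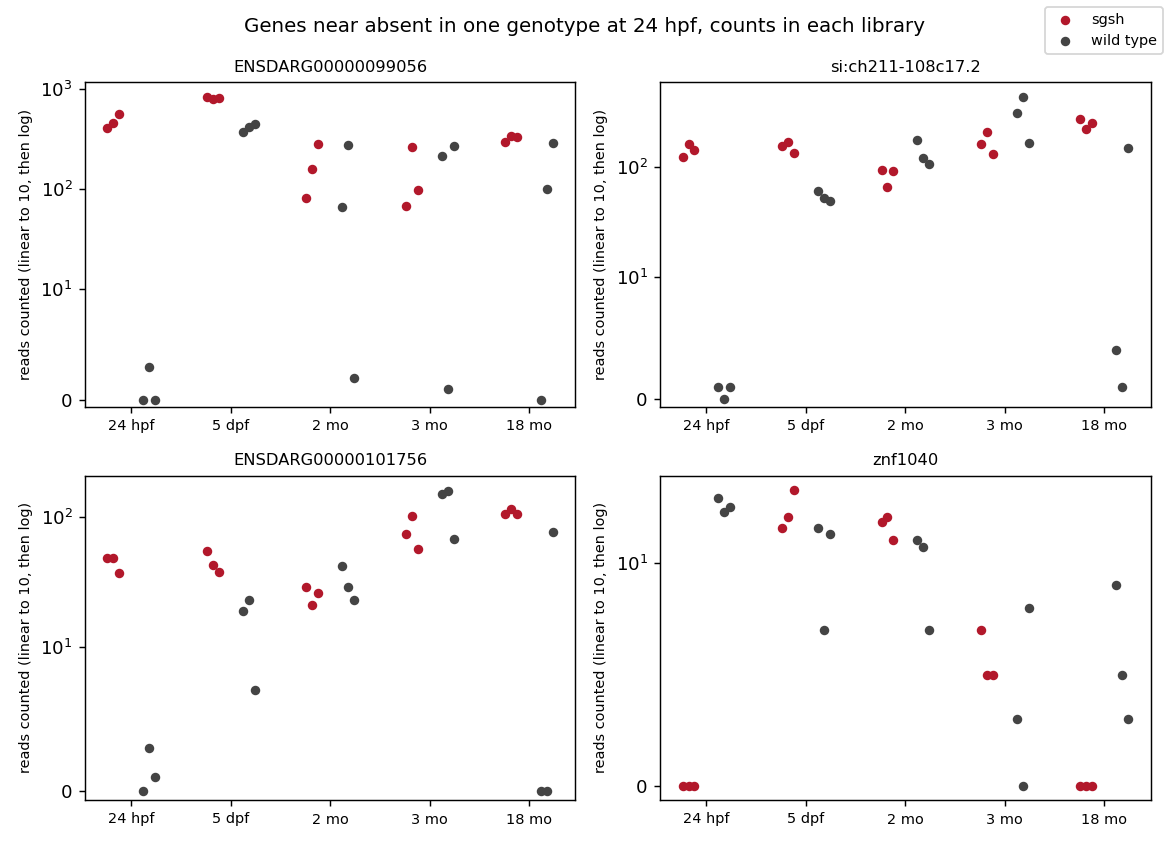
Reads counted on 4 genes in each library without transgene, with the ages in order and, at each age, sgsh libraries (red) left of wild-type libraries (grey). The vertical axis is linear up to 10 reads and logarithmic above, and a library at the bottom has 0 reads, as the 3 sgsh libraries have for znf1040 at 24 hpf. Reads compare genotypes within an age only, since counting and total counts differed between ages.

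The share of large changes was set beside the place of the genes. On chromosome 4 from 27 Mb onward 18.2% of 462 genes tested were called, and 6.49% were called with a change over 2-fold. On the rest of that chromosome 0.588% passed the 2-fold mark, and on unplaced or alternate scaffolds 5.15% of 194 genes did. Outside these regions and chromosome 22 the share was 1.07% of 18295 genes. It was not even there, from 0.352% on chromosome 8 to 2.43% on chromosome 25. Within 10 Mb of sgsh on chromosome 22, 70 of 431 genes were called, which is 16.2%, and 2 of them, or 0.464%, changed by over 2-fold. On the rest of the chromosome 16.3% were called, and 21.9% of the 18295 genes outside all these regions. The count of 70 became 44 without sgsh replicate 3, 43 without wild type replicate 1 and 35 under DESeq2. Calls over all genes fell as well in these fits, from 4369 to 3378, 3278 and 2590. The smallest adjusted p in the window belonged to safb, a nuclear matrix protein, with 251 ± 11 CPM in sgsh embryos and 188 ± 0.639 CPM in wild-type embryos.

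The 24 hpf changes were set beside those of the 4 later ages, which share no library with them. Of the called genes that were also tested later, 49.2% changed in the same direction in 5 dpf heads, 50.5% in brains at 2 months, 51% at 3 months and 52.2% at 18 months. Of all genes tested at those ages, 14.4% were called at 5 dpf, 0.49% at 2 months (0.182% higher and 0.307% lower), 2.89% at 3 months (2.01% higher and 0.878% lower) and 6.72% at 18 months (4.52% higher and 2.2% lower). Libraries of heads pooled 50 larvae and those of brains 3 fish. The common coefficient of variation between replicates in edgeR was 0.034 at 24 hpf and 0.046 at 5 dpf. In brains it was 0.093 at 2 months, 0.074 at 3 months and 0.12 at 18 months. The shares called at different ages therefore do not compare the size of the genotype effect. Of the called genes that also changed by over 2-fold at 24 hpf, 53.7% had the same direction at 5 dpf, 55.9% at 2 months, 54% at 3 months and 65.9% (81 of 123) at 18 months. Among genes not called at 24 hpf the shares with the same direction were 50.3%, 51.1%, 49.8% and 50%. At 5 dpf, 742 of the 4369 genes were called too, 395 in the same and 347 in the opposite direction. Of those over 2-fold at 24 hpf, 39 were called in the same and 22 in the opposite direction at 5 dpf, and 11 in the same and 1 in the opposite direction at 18 months. None of the 4369 was called in the same direction at all 4 later ages, 4 were at 3 of them, and 3773 were at none.

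The 4 recurring genes were MBLAC1, egr1, nr4a1 and thbs2a. MBLAC1, a metallo-β-lactamase domain protein, had 0.642, 0.664 and 1.04 CPM in sgsh embryos, against 1.53, 1.78 and 2.83 CPM in wild-type embryos (log2 fold change -1.38, SE 0.26, edgeR adjusted p = 0.00048). It was also called lower at 5 dpf (-0.70), 2 months (-2.72) and 18 months (-1.96). The immediate-early genes egr1 and nr4a1 were lower by less at 24 hpf, with log2 fold changes of -0.27 and -0.24, than at 3 months, with -1.18 and -1.81. Their groups overlapped at 24 hpf. nr4a1 was not called there by DESeq2 (adjusted p = 0.29) or without sgsh replicate 1 (adjusted p = 0.122), sgsh replicate 3 (0.0978) or wild type replicate 1 (0.112), and egr1 not without sgsh replicate 1 (adjusted p = 0.134), wild type replicate 1 (0.072) or wild type replicate 3 (0.0899). thbs2a, a matrix thrombospondin, was higher, with 12.9 ± 0.278 CPM in sgsh embryos and 10.9 ± 1.12 CPM in wild-type embryos (log2 fold change 0.24, edgeR adjusted p = 0.0306). DESeq2 did not call it (adjusted p = 0.142), nor was it called without sgsh replicate 1 (adjusted p = 0.0594), sgsh replicate 3 (0.0905) or wild type replicate 1 (0.202).

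Whether the genotype effect differs between 24 hpf embryos and 3-month brains was tested as an interaction over 12 libraries. It passed an adjusted p of 0.05 in 1817 of 22154 genes, or 8.2%, of which 1204 were also called at 24 hpf. Age and tissue change together in this test. In the clock list, 20 of 41 genes had a lower effect at 24 hpf and 1 a higher one, with median log2 fold changes of -0.25 at 24 hpf and 0.22 at 3 months. In the lysosome list, 16 of 53 had a lower effect at 24 hpf and none a higher one, with medians of -0.07 at 24 hpf and 0.16 at 3 months. ctsla, for example, had a log2 fold change of -0.31 at 24 hpf and 0.54 at 3 months. In the immediate-early list, 17 of 44 had a higher effect at 24 hpf and 4 a lower one, with medians of -0.06 at 24 hpf and -0.41 at 3 months.

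**Figure D5:**
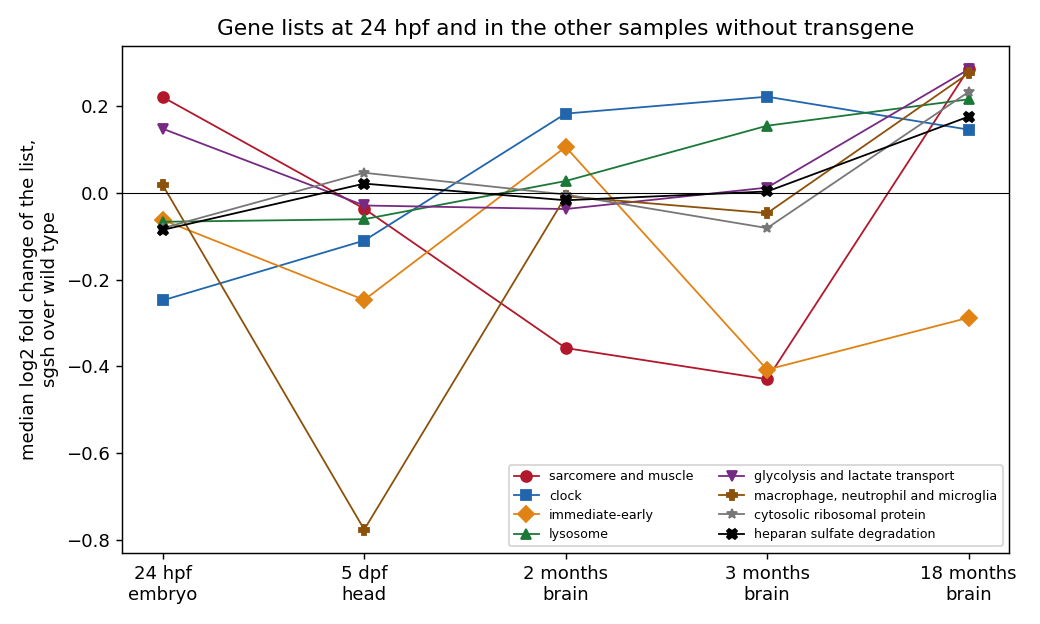
Median log2 fold change, sgsh over wild type, of the members of 8 gene lists in 24 hpf embryos, 5 dpf heads and brains at 2, 3 and 18 months, each age fitted on its own libraries, with lines that only join the medians of a list. The clock median was -0.25 at 24 hpf and 0.22 at 3 months, and the muscle median 0.22 and -0.43. Tissue changes with age here, so the muscle values of whole embryos and brains do not follow one tissue. Members not tested at an age are left out of its median.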

How the data were processed

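The deposited values are raw read counts per Ensembl gene, made by the authors and not normalized. The series table is named for STAR and featureCounts, the processing notes name HISAT2, Bowtie2, RSEM and build GRCz11, and the strand setting and filters of the table are not given in the sources used here. Overlapping and antisense genes can therefore not be told apart. Positions are those of the authors' tables.

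For the 6 libraries of 24 hpf, genes were kept by filterByExpr (count 10, total 15), scaled by TMM and fitted in edgeR 4.0.16 (R 4.3.3) with its quasi-likelihood F test and Benjamini-Hochberg adjustment at 0.05. SE is the absolute log2 fold change over the square root of F. Each later age was fitted alone in the same way, and the interaction on 12 libraries. An exact permutation test of 3 against 3 cannot go below 0.1 (two-sided). No library duplicated another. The scripts were tested on simulated data. Alternatives were the Wald test of DESeq2 1.42.0, other filters and scalings, a replicate block and each library left out.

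Genes were named by rule: sgsh, the 12 largest called changes in each direction and the 10 smallest adjusted p among genes with a symbol and non-overlapping groups, up to 6 called members per list, up to 10 called near sgsh, genes called at 3 or more later ages in the same direction, and genes with at most 3 reads in every library of one genotype and at least 30 in every library of the other. Not all of these are printed, and other list members stand as examples, chosen after their values were seen. The groups and lists were chosen with earlier results of these data known. Of 1157 list symbols, 1087 matched a gene. A gene list is not reported here.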

Additional observations from a re-analysis of the deposited data

Results flagged for a closer look

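The genotype effect differed between 24 hpf embryos and 3-month brains, by an interaction test over 12 libraries, in 1817 genes. For sgsh the effect at 24 hpf minus that at 3 months was 0.87 on the log2 scale (edgeR adjusted p = 0.0072). It was 0.89 for egr1 (adjusted p = 0.000842), 1.56 for nr4a1 (adjusted p = 1.3e-06) and -0.76 for thbs2a (adjusted p = 0.0298). egr1, nr4a1, thbs2a and MBLAC1 were named by their calls at 24 hpf and at later ages, values that the test uses again. Their adjusted p is therefore no separate support. For thbs2a the adjusted p was 0.0564 to 0.0826 when any of 8 of the 12 libraries was left out. For MBLAC1 the interaction was not called (-0.33, adjusted p = 0.785).

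The 5 genes read in sgsh embryos and nearly unread in wild-type embryos were picked by their 24 hpf counts, which the test reuses. A large difference was therefore built in, and the adjusted p is no separate support. Of these 5 genes, 3 passed, with differences on the log2 scale of 8.91 for ENSDARG00000099056 (adjusted p = 0.0016), 8.34 for si:ch211-108c17.2 (adjusted p = 2.06e-06) and 5.64 for ENSDARG00000101756 (adjusted p = 0.000138). The other two were not called, ENSDARG00000110710 (5.71, adjusted p = 1) and zgc:173770 (5.84, adjusted p = 0.13). Without wild type 24 hpf replicate 2, which holds the 3 reads of ENSDARG00000099056 in wild-type embryos, its difference was 12.01, and that of ENSDARG00000101756 was 6.85. Without sgsh 3 months replicate 2 the difference of ENSDARG00000099056 was 9.72, without wild type 3 months replicate 2 it was 9.49 and without wild type 3 months replicate 3 it was 8.32. All of these kept an adjusted p under 0.05. These fitted values depend on the prior count, since wild-type embryos had 0 to 3 reads. In 3-month brains ENSDARG00000099056 had 67, 262 and 98 reads in sgsh fish, against 216, 1 and 272 in wild-type fish.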

How the results depend on the processing

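DESeq2 called 2590 genes, 1285 higher and 1305 lower, against 4369 by edgeR. Under DESeq2 the share of called genes with the same direction at 5 dpf was 47.4%, and 35 genes were called within 10 Mb of sgsh. With no filter, with a minimum of 10 counts in each library, and with RLE or upper-quartile scaling, edgeR called 4253 to 4380 genes. No gene called in both had the opposite direction in any of these fits. Leaving out 1 library gave 3115 to 3864 called genes, 43 to 60 within 10 Mb of sgsh, and shares with the same direction at 18 months of 50.1% to 55.5%, with 50.1% without sgsh replicate 2 and 55.5% without wild type replicate 3. The interaction with 3 months passed in 1165 to 1750 genes, with the lowest counts without wild type 24 hpf replicate 2 (1165), sgsh 24 hpf replicate 3 (1185) and wild type 24 hpf replicate 1 (1195). The cause of these shifts was not tested. Values near 0 changed sign when 1 library was left out. Their log2 fold changes then spanned -0.110 to 0.027 for gnsa, -0.013 to 0.104 for bmal1a, -0.093 to 0.056 for bmal1b, -0.102 to 0.126 for fosab, -0.025 to 0.059 for jun, -0.107 to 0.171 for mpeg1.1 and -0.053 to 0.121 for csf1ra. The interaction of MBLAC1 spanned -0.614 to 0.038, with a positive value only without wild type 3 months replicate 3. Deviations from the group means correlated with r of 0.046, -0.042 and 0.024 for samples with the same replicate number. Pairs with different numbers had r of -0.085 to 0.063. Whether libraries of one number share a batch is not settled by these values, since each mean rests on 3 libraries. With a replicate block 4346 genes were called, 4221 of them among the 4369. At low counts, only large changes could be called.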
